A study of Homo sapiens with 4 samples.

Results

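The genes described here encode the SR proteins, the heterogeneous nuclear ribonucleoproteins (hnRNPs), the core proteins of the small nuclear ribonucleoproteins (snRNPs), the SF3A and SF3B subunits of the U2 snRNP and the U2AF subunits. They were chosen by gene symbol alone, among genes annotated as protein-coding in GENCODE, and comprised 62 of the 64252 genes in the count table. Of these, 12 were SR proteins (SRSF symbols), 27 hnRNPs (HNRNP), 12 snRNP proteins (SNRP), 9 SF3 subunits (SF3A and SF3B) and 2 U2AF subunits. The data are RNA-seq counts from the human neuroblastoma cell line SK-N-BE(2), with 2 libraries from cells carrying a scrambled shRNA (sh-Scb) and 2 from cells carrying an shRNA against SAPCD2 (sh-SAPCD2). Both groups were lentivirally transduced and selected with puromycin. The results therefore describe a stable, partial knockdown in 1 line, and no library of uninfected cells was compared. Nothing in the labels states that the libraries of a group came from separate cultures, so p-values measure the spread between libraries, which may be technical.

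These proteins carry out and steer the removal of introns from pre-mRNA. SR proteins bind exonic enhancers and recruit the spliceosome through their arginine- and serine-rich domains, whereas many hnRNPs coat nascent RNA and repress nearby splice sites. Sm proteins form the ring that holds the small nuclear RNAs, SF3A and SF3B anchor the U2 snRNP at the branch site, and U2AF reads the polypyrimidine tract and the end of the intron. Neuroblastoma arises from the neural crest, and neural cells are known for a splicing program in which some of these factors are exchanged for neural paralogs.

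The libraries held 25347900 to 31850997 counts, and 3 counts, used as the detection floor, corresponded to between 0.0942 and 0.118 CPM (TMM-scaled counts, on the scale of a library of uniform size). SAPCD2 was 83.4 and 82.1 CPM in sh-Scb cells and 35.3 and 52.4 CPM in sh-SAPCD2 cells, which left 42.7% and 63.3% of the control level. Its log2 fold change was −0.91 (SE 0.193, adjusted p = 0.0206, edgeR's quasi-likelihood test). All 9 adrenergic neuroblastoma markers exceeded 1 CPM in every library, against 4 of 6 mesenchymal, 1 of 4 epithelial, 1 of 4 blood and 0 of 2 endothelial markers. The summed adrenergic level was 6105 and 5961 CPM in sh-Scb cells and 8153 and 10080 CPM in sh-SAPCD2 cells, most of it from MYCN, and PRRX1, CDH1, KRT5, CD3E and HBB were at 0 in all libraries. The summed mesenchymal level was 345 and 363 CPM in sh-Scb cells against 423 and 391.7 CPM in sh-SAPCD2 cells. Mitochondrial protein-coding genes took 8.30% and 8.65% of the counts in sh-Scb cells and 7.68% and 6.18% in sh-SAPCD2 cells. The part of these shifts in the levels described below was not tested. In bulk RNA, fewer cells with a transcript and less of it per cell cannot be told apart.

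Knockdown of SAPCD2 was accompanied by lower mRNA levels of many splicing factors. Of the 58 that passed the filter on low counts, 24 fell and 3 rose at an adjusted p under 0.05, and 31 were not called. The 24 made up 41.4% of those tested, whereas 12.5% of all 18779 tested genes were called lower and 12.4% were called higher. Among the 8657 tested genes at least as abundant as the least abundant tested splicing factor, 16.4% were called lower and 17.8% higher. Only SNRPN, SF3B4, SF3A1 and SF3B6 also exceeded an absolute log2 fold change of 1 and so counted as differentially expressed genes (DEGs), all of them lower. By comparison, 5.15% of all tested genes were lower DEGs and 4.69% were higher DEGs. No splicing factor was a higher DEG with edgeR or with DESeq2, and 4 were higher at an unadjusted p under 0.05 in edgeR. Both sh-SAPCD2 libraries lay below both sh-Scb libraries for 36 of the 58 genes, against 33.4% of all tested genes, and above both for 6, against 33.5%.

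The median log2 fold change of the 58 genes was −0.30, with a range from −1.45 to 0.53, while the median of all tested genes was 0.02. Taken as a share of all counts, the group made up 1.64% and 1.63% of the sh-Scb libraries and 1.27% and 1.30% of the sh-SAPCD2 libraries, so both knockdown libraries were lower. The number of calls depended on which libraries entered the test. Leaving out either sh-Scb library left 8 genes called lower, leaving out sh-SAPCD2 replicate 1 gave 32 lower and 11 higher, and leaving out sh-SAPCD2 replicate 2 gave 38 lower and 5 higher. The calls over all tested genes moved with them. Without an sh-Scb library 5.81% and 5.80% of all genes were called lower, without sh-SAPCD2 replicate 1 20.2% were lower and 22.1% higher, and without sh-SAPCD2 replicate 2 17.7% were lower and 17.9% higher. SF3A1, SF3B4, SF3B6, HNRNPA3, HNRNPH3, HNRNPLL and SNRPN passed the threshold under all 13 alternative settings that were tried.

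**Figure D1:**
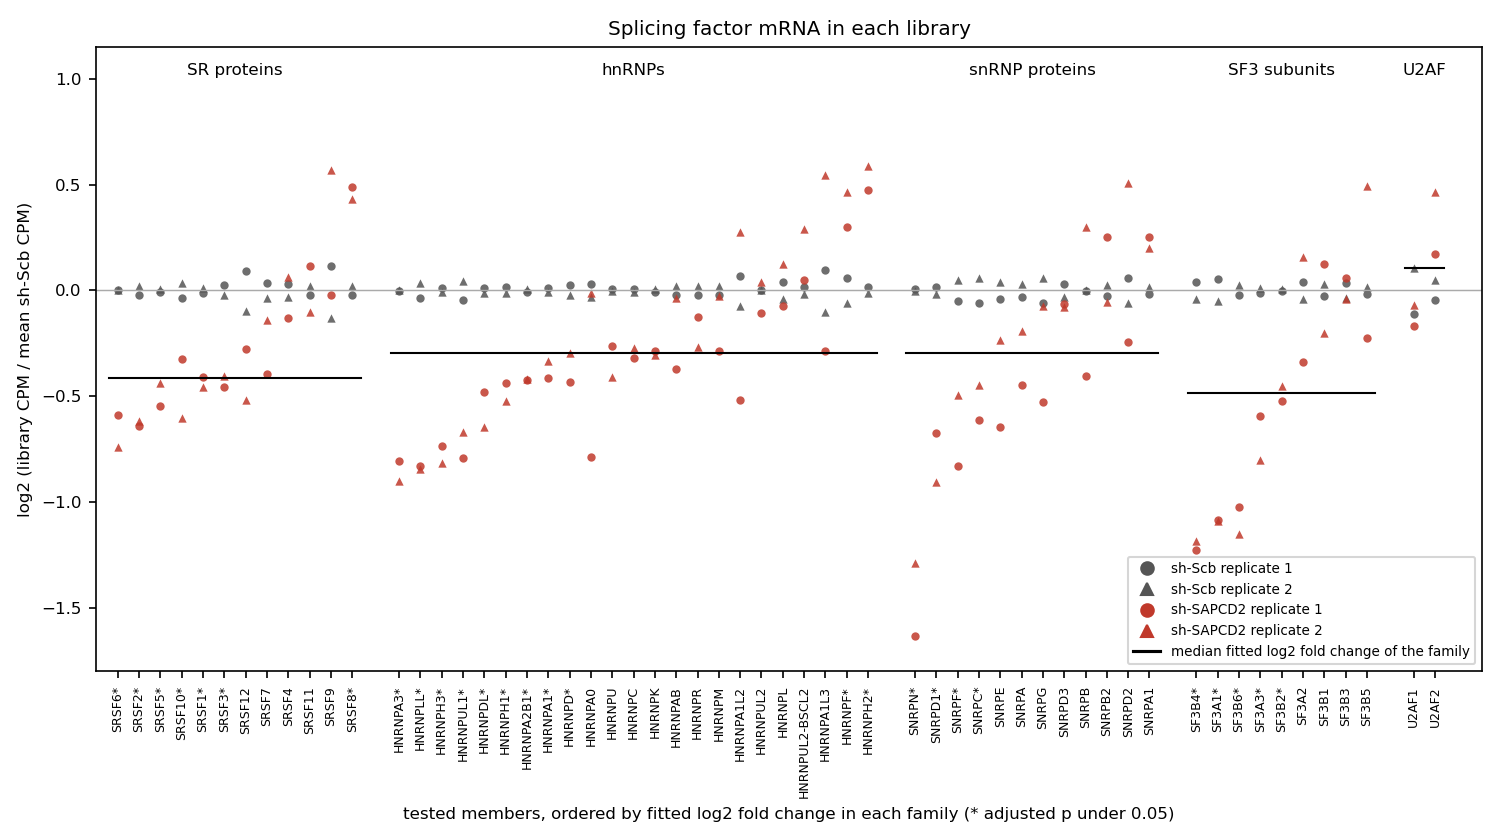
Each point is the log2 ratio of a library's CPM to the mean sh-Scb CPM for 1 gene, for the 58 tested genes, ordered within families by fitted log2 fold change. Gray symbols are sh-Scb and red symbols sh-SAPCD2 libraries, and black lines give the family medians. The red points of SNRPN, SF3B4, SF3A1 and SF3B6 sit lowest, and those of SRSF8, HNRNPF and HNRNPH2 lie above the control points in both libraries.

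All 12 SR protein genes were tested. SRSF1, SRSF2, SRSF3, SRSF5, SRSF6 and SRSF10 fell, SRSF8 rose, and the other 5 were not called. The median log2 fold change of the family was −0.41, and its share of all counts went from 0.263% and 0.261% in the sh-Scb libraries to 0.203% in each sh-SAPCD2 library. SRSF6, which acts on alternative exons of tau and other transcripts, was 308.6 and 308.8 CPM in sh-Scb cells and 205 and 185 CPM in sh-SAPCD2 cells. The control libraries were nearly identical and both knockdown libraries were lower, with a log2 fold change of −0.66 (SE 0.101, adjusted p = 0.00817).

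SRSF2, a nuclear speckle protein that binds exonic enhancers, was 368 and 379 CPM in sh-Scb cells and 239.8 and 244 CPM in sh-SAPCD2 cells. Its log2 fold change was −0.63 (SE 0.0914, adjusted p = 0.00722), and the knockdown libraries differed from each other by far less than from the controls. SRSF2 shares its locus with MFSD11, which lies on the opposite strand. SRSF5, first found as a growth response gene of liver cells, was 225 and 228 CPM against 155 and 167 CPM (log2 fold change −0.49, adjusted p = 0.0173). Per kilobase of transcript, SRSF2 and SRSF5 were the most abundant SR protein mRNAs in sh-Scb cells, at 198 and 151 CPM per kb.

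SRSF1, the prototype SR protein, was 420.3 and 427 CPM in sh-Scb cells and 319 and 309 CPM in sh-SAPCD2 cells (log2 fold change −0.43, adjusted p = 0.0203). SRSF3, a small SR protein that also serves mRNA export, was 377 and 364 CPM against 269.7 and 280.1 CPM (log2 fold change −0.43, adjusted p = 0.0219). Both genes showed 2 separated groups of libraries. SRSF10, which becomes a repressor when dephosphorylated, had a log2 fold change of −0.46 (adjusted p = 0.0412).

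SRSF8, a retrotransposed relative of SRSF2, moved the other way. It was 71.5 and 73.6 CPM in sh-Scb cells and 102 and 97.7 CPM in sh-SAPCD2 cells. The log2 fold change was 0.46 (SE 0.102, adjusted p = 0.0239), and the gene passed the threshold under 10 of the 13 alternatives. SRSF4 and SRSF11 were close to the control level, with log2 fold changes of −0.03 (adjusted p = 0.865) and 0.01 (adjusted p = 0.957). SRSF7, SRSF9 and SRSF12 had adjusted p values of 0.157, 0.317 and 0.123. None of the 6 SR protein calls to the lower side remained when either sh-Scb library was left out, although the log2 fold changes stayed negative. Over the 4 fits without 1 library they ranged from −0.65 to −0.61 for SRSF2, from −0.46 to −0.41 for SRSF1 and from −0.74 to −0.59 for SRSF6.

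Of the 27 hnRNP genes, HNRNPCL1, HNRNPCL2, HNRNPCL3 and HNRNPCL4 had 0 counts in all 4 libraries. These are relatives of HNRNPC, and a count of 0 allows up to 0.118 CPM in the shallowest library. Of the 23 tested hnRNP genes, 9 fell, 2 rose and 12 were not called, with a median log2 fold change of −0.30. The family took 1.07% and 1.06% of all counts in sh-Scb cells and 0.817% and 0.841% in sh-SAPCD2 cells.

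The lowest log2 fold change among hnRNPs belonged to HNRNPA3, a relative of HNRNPA1 that binds RNA and telomeric repeats. It was 687 and 690.0 CPM in sh-Scb cells and 393 and 369 CPM in sh-SAPCD2 cells. Both knockdown libraries lay far below the controls, with a log2 fold change of −0.85 (SE 0.0926, adjusted p = 0.00377). HNRNPLL, known as the switch factor for CD45 exons in T cells, was 73.9 and 77.7 CPM against 42.7 and 42.2 CPM. Its log2 fold change was −0.84 (SE 0.109, adjusted p = 0.00569).

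HNRNPH3, a short member of the hnRNP H family, was 233 and 230.4 CPM in sh-Scb cells and 139 and 132 CPM in sh-SAPCD2 cells (log2 fold change −0.78, SE 0.0958, adjusted p = 0.00499). HNRNPUL1, a relative of hnRNP U linked to the DNA damage response, was 219.5 and 233 CPM against 130.4 and 142 CPM (log2 fold change −0.73, SE 0.103, adjusted p = 0.00658). In both genes the control libraries and the knockdown libraries formed separate groups. HNRNPDL, HNRNPH1 and HNRNPD also fell, with log2 fold changes of −0.56, −0.48 and −0.36, and HNRNPD passed the threshold under 7 of the 13 alternatives.

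HNRNPA1 and HNRNPA2B1 encode general packaging proteins of nascent RNA that also repress exon inclusion, and both fell. HNRNPA1 was 2492 and 2459 CPM in sh-Scb cells and 1856 and 1963 CPM in sh-SAPCD2 cells (log2 fold change −0.37, SE 0.0864, adjusted p = 0.0267), and passed under 8 of the 13 alternatives. HNRNPA2B1 was 1019 and 1031 CPM against 764 and 765 CPM (log2 fold change −0.42, SE 0.0866, adjusted p = 0.0189). Per kilobase of transcript in sh-Scb cells, HNRNPA1 led at 661 CPM per kb, followed by HNRNPK at 308.5 CPM per kb and HNRNPA2B1 at 283 CPM per kb. HNRNPA1 alone held 15.4% and 15.2% of the splicing factor counts in sh-Scb cells and 14.6% and 14.9% in sh-SAPCD2 cells.

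Next to the threshold stood HNRNPU, HNRNPK and HNRNPC, with log2 fold changes of −0.33, −0.30 and −0.30 and adjusted p values of 0.0512, 0.0544 and 0.0586. HNRNPU organizes chromatin as well as RNA, HNRNPK binds cytosine-rich RNA, and HNRNPC binds uridine tracts. For each of these genes both knockdown libraries were below both control libraries. HNRNPL, which binds CA repeats, and HNRNPUL2 had log2 fold changes of 0.03 (adjusted p = 0.87) and −0.03 (adjusted p = 0.844), and their groups overlapped.

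Both hnRNPs that rose, HNRNPH2 and HNRNPF, belong to the family that binds runs of guanines. HNRNPH1 and HNRNPH3 of the same family fell, with log2 fold changes of −0.48 and −0.78. HNRNPH2 was 85.8 and 84.1 CPM in sh-Scb cells and 118 and 127.5 CPM in sh-SAPCD2 cells, with a log2 fold change of 0.53 (SE 0.102, adjusted p = 0.0158). HNRNPF was 242 and 223 CPM against 286 and 320.2 CPM, with a log2 fold change of 0.39 (SE 0.107, adjusted p = 0.0462), and passed under 8 of the 13 alternatives. A readthrough gene, RPL36A-HNRNPH2, shares exons with HNRNPH2 on the same strand and was 5.82 and 4.28 CPM in sh-Scb cells and 13.8 and 1.18 CPM in sh-SAPCD2 cells. Summed over both genes, the level was 91.6 and 88.4 CPM against 132 and 129 CPM, so the sh-SAPCD2 mean was 145% of the control mean.

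The 12 snRNP protein genes were all tested. SNRPN, SNRPD1, SNRPF and SNRPC fell and the other 8 were not called, with a family median log2 fold change of −0.30. With all 4 libraries and no correction, none was called higher by edgeR or DESeq2, and 0 were higher at an unadjusted p under 0.05. After the correction for GC content and length 2 were called higher, and without sh-SAPCD2 replicate 1 or 2 there were 3 and 2. The fit corrected for GC content and length called 20.4% of all tested genes higher. The family held 0.0997% and 0.101% of all counts in sh-Scb cells and 0.0762% and 0.0892% in sh-SAPCD2 cells.

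SNRPN encodes SmN, the neural form of SmB that takes its place in the Sm ring, and is expressed from the paternal allele of the imprinted region at chr15:24823637-24978723 (GRCh38, plus strand). It was 91.7 and 91.2 CPM in sh-Scb cells and 29.5 and 37.4 CPM in sh-SAPCD2 cells. The knockdown libraries held 32.2% and 40.9% of the control level, and the log2 fold change was −1.45 (SE 0.146, adjusted p = 0.00322), the lowest of all 58 genes. In GENCODE 44, SNRPN overlaps SNURF and, at its end, the start of SNHG14 on the same strand, and how the authors' StringTie analysis divided shared reads is not given in the sources used here. SNURF was 4.16 and 0.835 CPM in sh-Scb cells and 2.37 and 2.39 CPM in sh-SAPCD2 cells, with overlapping groups.

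SNHG14, the long transcript that hosts the small nucleolar RNAs of this region, rose from 71.9 and 70.5 CPM to 117 and 93.4 CPM (log2 fold change 0.56, SE 0.135, adjusted p = 0.0303). Summed with SNURF, SNRPN was at 38.1% of the control mean. Summed over SNRPN, SNURF and SNHG14, the level was 168 and 162.5 CPM in sh-Scb cells and 148 and 133 CPM in sh-SAPCD2 cells, or 85.3% of the control mean. The part of such shared reads in the lower SNRPN value was not tested.

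**Figure D2:**
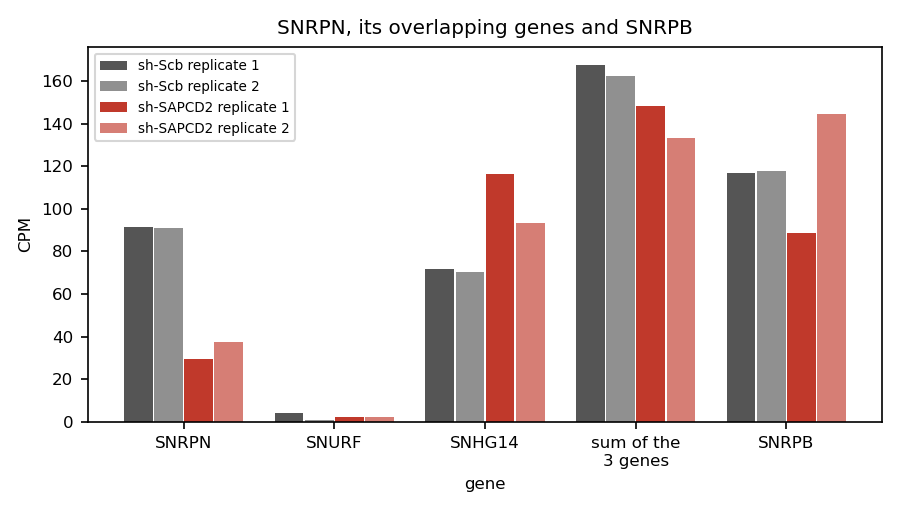
Bars give the CPM of SNRPN, SNURF, SNHG14, their sum and SNRPB in each of the 4 libraries, gray for sh-Scb and red for sh-SAPCD2. SNRPN bars drop from about 91 CPM to 29.5 and 37.4 CPM while SNHG14 bars are higher, and the sum of the 3 genes drops from 168 and 162.5 CPM to 148 and 133 CPM.

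Among the other Sm proteins, SNRPD1 was 64.9 and 63.4 CPM in sh-Scb cells and 40.2 and 34.2 CPM in sh-SAPCD2 cells (log2 fold change −0.79, SE 0.129, adjusted p = 0.0101). SNRPF was 69.8 and 74.7 CPM against 40.7 and 51.3 CPM (log2 fold change −0.65, SE 0.145, adjusted p = 0.0243). For both genes the groups were separate, although the SNRPF libraries within the knockdown group differed more. SNRPC, which helps the U1 snRNP recognize the start of the intron, was 80.9 and 87.8 CPM against 55.2 and 61.9 CPM (log2 fold change −0.53, SE 0.118, adjusted p = 0.0244).

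SNRPB, which encodes SmB, had the smallest absolute log2 fold change of the family at −0.01 (adjusted p = 0.978). Its sh-Scb libraries stood at 117 and 118 CPM and its sh-SAPCD2 libraries at 88.6 and 144 CPM, on either side of the controls. SNRPD2 was 76.0 and 69.8 CPM in sh-Scb cells and 61.5 and 104 CPM in sh-SAPCD2 cells, again on either side. SNRPD3, SNRPE and SNRPG had log2 fold changes of −0.07, −0.42 and −0.28 and were not called. The U1 protein SNRPA and the U2 proteins SNRPA1 and SNRPB2 had log2 fold changes of −0.31, 0.23 and 0.11 and were not called either. Per kilobase of transcript, SNRPF (159.8 CPM per kb) and SNRPD2 (141.5 CPM per kb) were the most abundant in sh-Scb cells.

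SF3A and SF3B subunit genes made up 3 of the 4 DEGs. All 9 genes were tested, SF3A1, SF3A3, SF3B2, SF3B4 and SF3B6 fell, and SF3A2, SF3B1, SF3B3 and SF3B5 were not called. The median log2 fold change was −0.49. With all 4 libraries and no correction, none was called higher by edgeR or DESeq2, and 0 were higher at an unadjusted p under 0.05. As a share of all counts the family went from 0.187% and 0.186% in sh-Scb cells to 0.154% and 0.144% in sh-SAPCD2 cells.

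SF3B4, which binds pre-mRNA upstream of the branch site, was 77.4 and 73.1 CPM in sh-Scb cells and 32.2 and 33.1 CPM in sh-SAPCD2 cells. The knockdown mean was 43.4% of the control mean (log2 fold change −1.21, SE 0.113, adjusted p = 0.00312). SF3A1, the largest SF3A subunit, was 141.9 and 132 CPM against 64.6 and 64.2 CPM (log2 fold change −1.09, SE 0.103, adjusted p = 0.00313). Its knockdown libraries were nearly equal, at 47.2% and 46.9% of the control level.

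SF3B6, the p14 subunit that contacts the branch-point adenosine, was 95.95 and 99.1 CPM in sh-Scb cells and 48.0 and 43.9 CPM in sh-SAPCD2 cells (log2 fold change −1.09, SE 0.111, adjusted p = 0.0033). SF3A3, the subunit that completes SF3A, was 135 and 137 CPM against 90.4 and 78.2 CPM (log2 fold change −0.69, SE 0.113, adjusted p = 0.0101). SF3B2, the partner of SF3B4, was 444 and 447 CPM against 309.9 and 325.5 CPM (log2 fold change −0.49, SE 0.0918, adjusted p = 0.015). In each of these genes both knockdown libraries were below both controls.

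SF3B1, the scaffold of the complex, did not share these values. It was 486 and 506 CPM in sh-Scb cells and 540.1 and 431 CPM in sh-SAPCD2 cells, with a log2 fold change of −0.03 (SE 0.129, adjusted p = 0.884). SF3B3, its large partner, was 339.7 and 323 CPM against 345 and 321.5 CPM (log2 fold change 0.01, SE 0.0966, adjusted p = 0.96). Under other settings both genes changed sign, SF3B1 between −0.21 and 0.12 and SF3B3 between −0.05 and 0.06. These settings are given with the dependence on processing. SF3B5 was 47.5 and 48.6 CPM against 41.2 and 67.6 CPM, and SF3A2 was 89.05 and 84.0 CPM against 68.5 and 96.4 CPM. Both had 1 knockdown library below and 1 above the controls. Per kilobase, SF3B6 (149.8 CPM per kb) and SF3B2 (136 CPM per kb) were the highest of the family in sh-Scb cells.

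**Figure D3:**
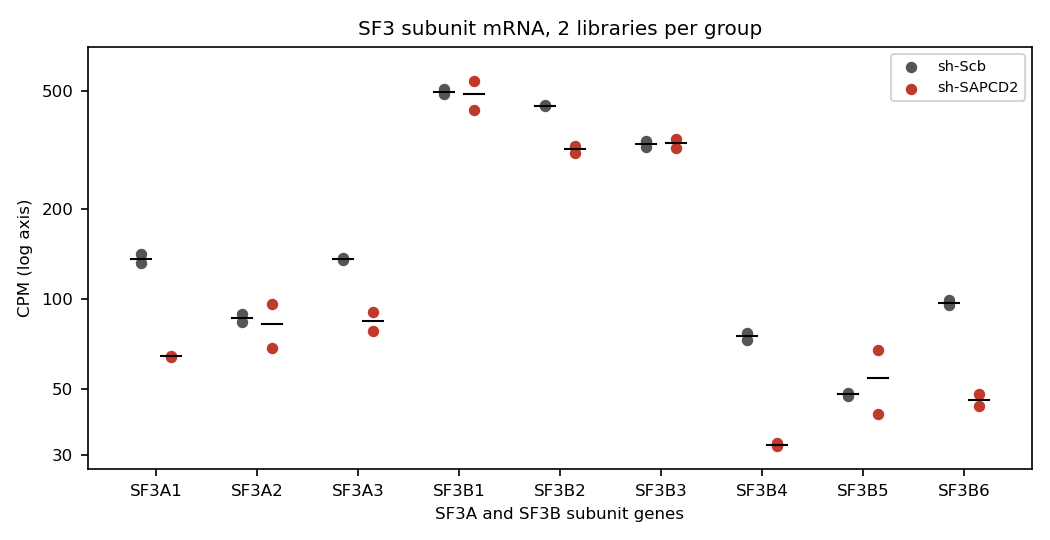
Points give the CPM of each SF3A and SF3B gene in each library on a log axis, gray for sh-Scb and red for sh-SAPCD2, and black bars the mean of 2 libraries. The groups are separate for SF3A1, SF3A3, SF3B2, SF3B4 and SF3B6, and overlap for SF3A2, SF3B1, SF3B3 and SF3B5.

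U2AF2, which reads the polypyrimidine tract, was 130.2 and 139 CPM in sh-Scb cells and 152 and 186 CPM in sh-SAPCD2 cells (log2 fold change 0.33, SE 0.128, adjusted p = 0.114). U2AF1, which reads the terminal AG of the intron, was 37.2 and 43.3 CPM against 35.8 and 38.3 CPM (log2 fold change −0.12, SE 0.135, adjusted p = 0.552). Neither was called by edgeR or DESeq2 with all 4 libraries and no correction, and U2AF2 was higher at an unadjusted p of 0.0427. The genome build holds a near-identical copy of U2AF1 on the same chromosome, so its counts may be incomplete.

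Promoter sequence is shown for the 3 SF3 DEGs, for SF3A2 as a subunit that was not called, and for HNRNPA3. RefSeq promoters (GRCh38.p14) covered 250 bases before to 50 bases after the annotated start and matched 53 of the 58 tested genes by symbol. HNRNPA1, HNRNPA1L3, SRSF2, SNRPD1 and SF3B3 had no match. Capitals mark the ETS motif CCGGAAGT, the E-box CACGTG and the E2F consensus in any of the forms TTTCCCGC, TTTGGCGC, TTTCGCGC and TTTGCCGC, on either strand. The motifs were chosen with earlier results of these data known.
SF3A1, chr22:30356845-30357144, minus strand: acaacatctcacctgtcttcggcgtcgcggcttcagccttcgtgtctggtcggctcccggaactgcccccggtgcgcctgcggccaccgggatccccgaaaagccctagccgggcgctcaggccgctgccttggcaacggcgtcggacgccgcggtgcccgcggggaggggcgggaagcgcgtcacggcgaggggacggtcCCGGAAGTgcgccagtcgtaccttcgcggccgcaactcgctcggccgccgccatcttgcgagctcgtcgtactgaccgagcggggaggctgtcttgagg
SF3B4, chr1:149927754-149928053, minus strand: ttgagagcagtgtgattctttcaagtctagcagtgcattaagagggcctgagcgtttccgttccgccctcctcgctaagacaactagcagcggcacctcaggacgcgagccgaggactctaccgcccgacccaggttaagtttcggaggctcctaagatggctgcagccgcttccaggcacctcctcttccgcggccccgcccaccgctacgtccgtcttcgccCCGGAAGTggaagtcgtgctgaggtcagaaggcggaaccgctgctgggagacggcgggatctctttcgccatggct
SF3B6, chr2:24076277-24076576, minus strand: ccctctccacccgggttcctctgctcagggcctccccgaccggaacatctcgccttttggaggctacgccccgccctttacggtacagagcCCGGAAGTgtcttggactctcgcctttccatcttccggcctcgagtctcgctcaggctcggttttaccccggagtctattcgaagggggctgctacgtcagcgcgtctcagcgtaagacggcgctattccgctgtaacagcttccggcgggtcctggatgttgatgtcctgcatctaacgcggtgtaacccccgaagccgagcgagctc
SF3A2, chr19:2236574-2236873, plus strand: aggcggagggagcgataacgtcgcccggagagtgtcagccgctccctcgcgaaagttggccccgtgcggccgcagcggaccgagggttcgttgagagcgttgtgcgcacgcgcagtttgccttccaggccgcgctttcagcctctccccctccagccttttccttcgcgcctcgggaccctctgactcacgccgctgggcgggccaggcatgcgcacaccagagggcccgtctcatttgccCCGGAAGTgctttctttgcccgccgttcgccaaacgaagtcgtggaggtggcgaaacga
HNRNPA3, chr2:177212544-177212843, plus strand: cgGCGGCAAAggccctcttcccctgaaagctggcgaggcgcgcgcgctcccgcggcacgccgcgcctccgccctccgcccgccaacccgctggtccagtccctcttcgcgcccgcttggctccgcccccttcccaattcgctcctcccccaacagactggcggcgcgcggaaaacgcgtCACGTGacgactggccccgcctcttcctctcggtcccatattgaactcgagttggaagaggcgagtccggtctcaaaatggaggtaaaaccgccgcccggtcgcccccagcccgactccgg

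The ETS motif was present in 13 of the 53 promoters (24.5%), against 8.44% of 10996 promoters of tested coding genes and 4.435% of all 27305 promoters. It lay in the promoters of SF3A1, SF3A2, SF3A3, SF3B2, SF3B4 and SF3B6, of which SF3A2 was not called. Of the 13 genes, 7 were called lower, and U2AF2, SRSF4 and SNRPB were among those that were not. By comparison, 41.4% of the 58 tested splicing factors were called lower. The median log2 fold change was −0.42 with the motif and −0.29 without it. The E2F consensus was found in 6 promoters (11.3%), against 5.22% of tested coding genes and 3.325% of all promoters. These were HNRNPA3, HNRNPK, HNRNPLL, SF3B1, SNRPB and SRSF10, 3 of them called lower.

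The E-box was found in 8 promoters (15.1%, against 10.1% of tested coding genes and 7.435% of all promoters), of which 5 belonged to genes called lower, and HNRNPH2, with 2 copies, belonged to a gene called higher. The shorter CCAAT box (CCAAT) was found in 21 (39.6%, against 36.5% and 35.7%) and the NRF1 motif GCATGCGC in 3 (5.66%, against 5.37% and 3.27%). Median log2 fold changes with and without the motif were −0.46 and −0.30 for the E-box and −0.38 and −0.30 for the E2F consensus. For the CCAAT box they were −0.20 and −0.38, and for the NRF1 motif −0.12 and −0.30. A letter match is a description of the window and not a binding site. For each motif, the count called lower is to be read against the 41.4% of the 58 tested splicing factors. The share called lower among all tested genes with each motif was not computed.

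The sh-SAPCD2 libraries differed from each other more than the sh-Scb libraries did. Over the 58 genes the median absolute log2 difference was 0.16 between the sh-SAPCD2 libraries and 0.05 between the sh-Scb libraries, compared with 0.28 and 0.11 over all tested genes. Replicate 2 was higher than replicate 1 for 35 genes, and by more than 0.5 on the log2 scale for HNRNPA0, HNRNPA1L2, HNRNPA1L3, SF3B5, SNRPB, SNRPD2 and SRSF9. HNRNPA0 was 320.0 and 307 CPM in sh-Scb cells and 182 and 311 CPM in sh-SAPCD2 cells, so that only replicate 1 was low. None of these 7 genes was called by edgeR with all 4 libraries and no correction, and each passed the threshold in at least 1 alternative.

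Across the 58 genes, the Spearman correlation of this replicate difference was 0.55 with the GC content of the transcript and −0.58 with its length. Across 17467 annotated tested genes it was 0.56 and −0.26. Genes of a library share its depth and base composition, so these correlations are descriptions of the libraries. The fitted log2 fold change of the 58 genes had a Spearman correlation of 0.27 with GC content and −0.14 with length. With each library corrected for GC content and length, 27 splicing factors were called lower, 23 of them among the 24, and 5 higher. The same fit called 19.5% of all tested genes lower and 20.4% higher.

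**Figure D4:**
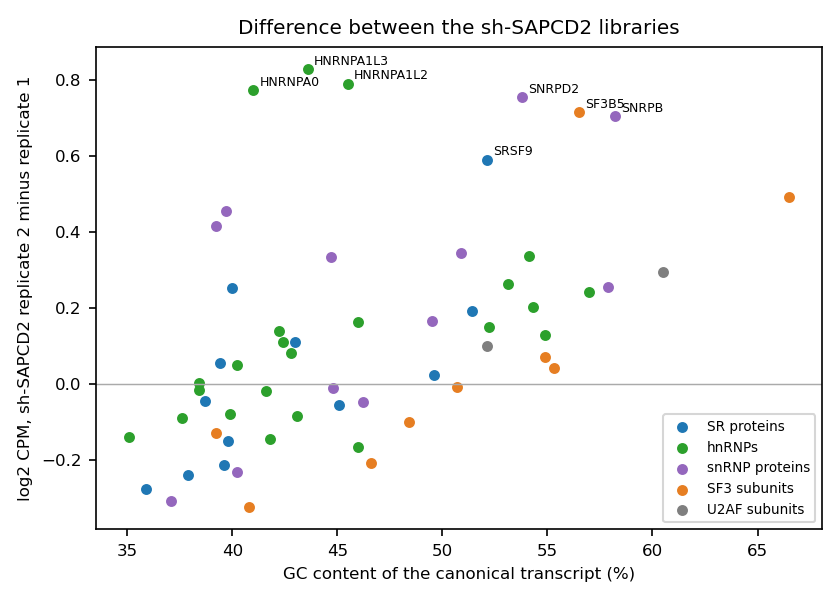
Each point is 1 of the 58 tested genes, with the GC content of its canonical transcript on the horizontal axis and the log2 CPM of sh-SAPCD2 replicate 2 minus that of replicate 1 on the vertical axis, colored by family. Points rise to the right (Spearman correlation 0.55), and the 7 named genes exceed a difference of 0.5.

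The balance between related factors was read within each library as the log2 ratio of their CPM, which does not depend on library size. SNRPN over SNRPB was −0.35 and −0.37 in sh-Scb cells and −1.59 and −1.95 in sh-SAPCD2 cells, a difference of −1.41 in the mean ratio. SNRPB itself lay on either side of its sh-Scb level, at 88.6 and 144 CPM in the sh-SAPCD2 libraries. The part of reads shared with SNURF and SNHG14 in the SNRPN counts was not tested, so the ratio may not be that of SmN to SmB mRNA. HNRNPLL over HNRNPL was −1.73 and −1.57 against −2.40 and −2.62, a difference of −0.86. HNRNPH2 over HNRNPH1 was −2.79 in both sh-Scb libraries and −1.88 and −1.68 in the sh-SAPCD2 libraries, a difference of 1.01. HNRNPH1 fell and HNRNPH2 rose, so both members moved the ratio.

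HNRNPA3 over HNRNPA1 changed by −0.48, HNRNPUL1 over HNRNPU by −0.39 and SRSF3 over SRSF7 by −0.16. SRSF9 over SRSF1 changed by 0.71 and SRSF4 over SRSF6 by 0.63. In these 8 pairs, which were chosen with earlier results of these data known, the groups did not overlap. For single genes, 33.4% of all tested genes had both sh-SAPCD2 libraries below both sh-Scb libraries and 33.5% had both above. The share of other gene pairs whose ratios separate the groups was not computed. PTBP2 over PTBP1, the neural and general polypyrimidine tract binding proteins, was −3.90 and −3.95 in sh-Scb cells and −3.95 and −4.54 in sh-SAPCD2 cells, and sh-SAPCD2 replicate 1 lay within the control range. With 2 libraries a group, the smallest two-sided p of an exact permutation test is 0.333, so no test of a ratio was made.

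**Figure D5:**
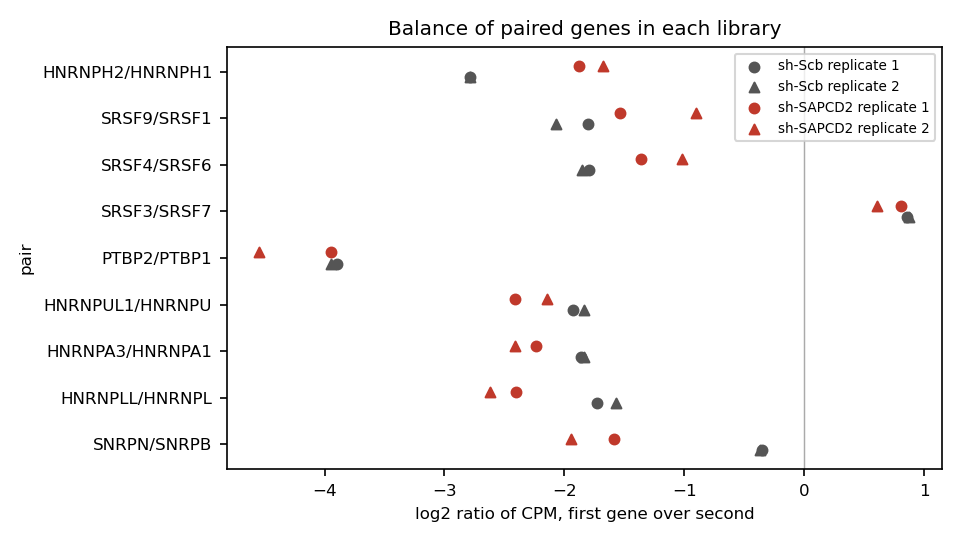
For each of 9 pairs, the horizontal axis gives the log2 ratio of the CPM of the first gene to that of the second in each library, gray for sh-Scb and red for sh-SAPCD2. SNRPN/SNRPB, HNRNPLL/HNRNPL and HNRNPH2/HNRNPH1 show the widest gaps between gray and red symbols, and only PTBP2/PTBP1 overlaps.

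Other splicing genes were counted in lists compiled from general knowledge. Each count is to be read against the 12.5% of all tested genes called lower and the 12.4% called higher. Among the 8657 tested genes at least as abundant as the least abundant tested splicing factor, these shares were 16.4% and 17.8%. Of 44 further spliceosome subunits, all tested, 10 fell and 1 rose, with a median log2 fold change of −0.15. SNRNP40, a U5 protein, was 46.96 and 54.3 CPM in sh-Scb cells and 20.6 and 22.6 CPM in sh-SAPCD2 cells (log2 fold change −1.23, adjusted p = 0.00415). The helicase DDX23, the intron-binding protein AQR and the B-complex protein PRPF38A fell with log2 fold changes of −0.77, −0.64 and −0.60. Those called lower were 22.7% of the list and those called higher 2.27%.

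SR-like and RS-domain proteins were closest to the SR family. Of 17 genes, of which SRSF11 and SRSF12 are also SR family genes here, 9 (52.9%) fell, with a median of −0.40. With all 4 libraries and no correction, none was called higher by edgeR or DESeq2, and 0 were higher and 16 lower at an unadjusted p under 0.05. SRRM2, the scaffold of nuclear speckles, was 841.5 and 829 CPM in sh-Scb cells and 417 and 361 CPM in sh-SAPCD2 cells (log2 fold change −1.10, SE 0.108, adjusted p = 0.00321). SRRM1, ACIN1 and THRAP3, further RS-domain proteins, fell with log2 fold changes of −0.69, −0.56 and −0.55.

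Of 13 genes for SR protein kinases, phosphatase and nuclear import, 1 fell and 1 rose (7.69% each, below the shares of all tested genes), with a median of −0.08. CLK1, a nuclear SR protein kinase, fell with a log2 fold change of −0.49 (adjusted p = 0.0294) and DYRK1B rose with 0.72 (adjusted p = 0.0253). SRPK1, the cytoplasmic SR protein kinase, and PRPF4B had log2 fold changes of −0.30 (adjusted p = 0.118) and −0.32 (adjusted p = 0.161).

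For the snRNPs, 18 assembly genes gave 2 that fell (11.1%) and 1 that rose (5.56%), with a median of −0.07 and a lower share close to that of all tested genes. TGS1, which hypermethylates the snRNA cap, fell with a log2 fold change of −0.79 (adjusted p = 0.013), PRMT5, which methylates Sm proteins, with −0.41 (adjusted p = 0.0324), and GEMIN7 rose with 0.65 (adjusted p = 0.0399). GEMIN8 had a log2 fold change of −0.63 (adjusted p = 0.0592). Among 13 LSm genes, 3 fell (23.1%) and 1 rose (7.69%), with a median of 0.10. LSM11, a U7 snRNP protein of histone mRNA processing, was 17.2 and 18.7 CPM in sh-Scb cells and 46.8 and 47.7 CPM in sh-SAPCD2 cells (log2 fold change 1.40, SE 0.127, adjusted p = 0.00287). LSM3, LSM14A and LSM5 fell with log2 fold changes of −0.56, −0.56 and −0.60.

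Of 17 exon junction complex and nonsense-mediated decay genes, 5 (29.4%) fell, with a median of −0.19. With all 4 libraries and no correction, none was called higher by edgeR or DESeq2, and 0 were higher and 7 lower at an unadjusted p under 0.05. The 4 with the smallest p were CASC3, SMG9, RNPS1 and SMG8, with log2 fold changes of −0.59, −0.72, −0.44 and −0.55. Of 40 tissue splicing regulators, 36 were tested, 5 fell (13.9%) and 6 rose (16.7%), both shares close to those of all tested genes, with a median of −0.04. NOVA2, a neuronal splicing factor, was 6.33 and 5.48 CPM in sh-Scb cells and 19.96 and 17.5 CPM in sh-SAPCD2 cells (log2 fold change 1.66, adjusted p = 0.00342). RBMX, PTBP3 and MBNL3 fell with log2 fold changes of −0.98, −1.27 and −1.25.

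The shRNA itself can pair with other transcripts. The arms of sh-SAPCD2 #1, which the study's heat map names for the sequenced cells, are printed with the bases in capitals that pair with the sites searched, and the sites are shown in the 3′ UTR of SRSF3 and HNRNPUL1, 2 genes that fell.
Sense arm: ACCTCTggattccaccttcat
Antisense arm: atgaAGGTGGAatccagaggt
SRSF3, chr6:36603580-36603586, plus strand: attatttattTCCACCTtttacacaaa
HNRNPUL1, chr19:41306814-41306820, plus strand: tccccagcctTCCACCTcctgttcttc

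Sites were TCCACCT and CCACCTA for the antisense arm, opposite its bases 5 to 11 and 5 to 10. For the sense arm with the base before it they were AGAGGTC and GAGGTCA. The last A of CCACCTA and of GAGGTCA does not pair with the shRNA. All of these sites were singled out after earlier values of these data were seen. Of the 58 splicing factors, 12 (20.7%) held at least 1 site in the 3′ UTR, against 33.9% of 13583 tested coding genes and 47.0% of 1894 coding genes called lower. Sites were present in 4 of the 24 factors called lower (16.7%), which were HNRNPUL1, SNRPD1, SRSF10 and SRSF3, and in 8 of the 34 others (23.5%). None of the 4 DEGs held any of these sites. SRSF8, which rose, held GAGGTCA. Median log2 fold changes were −0.20 for the 12 factors that held a site and −0.30 for the other 46, and their median 3′ UTR lengths were 3380.5 and 788.5 bases. The sites opposite bases 2 to 8 of the antisense and sense arms (ACCTTCA and CCAGAGG) lay in 14 of the 58 (24.1%), against 26.4% of tested coding genes and 28.3% of those called lower. They were found in 5 of the 24 factors called lower, HNRNPA2B1, HNRNPA3, HNRNPUL1, SF3A3 and SRSF2, and in 0 of the 4 DEGs.

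Some limits of the gene-level counts fall on these genes in particular. At least 1 transcript annotated as a target of nonsense-mediated decay was found for 35 of the 58 (60.3%), against 46.6% of 13617 tested coding genes, and for 12 of 12 SR protein genes and 15 of the 24 genes called lower. SR and hnRNP genes are known to control their own mRNA through such transcripts, and a count per gene does not separate them. Pseudogenes named after 31 of the 62 genes numbered 195 in the annotation, 74 of them after HNRNPA1, 20 after SNRPG, 18 after SNRPC and 16 after HNRNPA3. The handling of reads that match both a gene and its pseudogenes is not given in the sources used here. Of the 58 tested genes, 35 overlap another gene of the table, and HNRNPUL2-BSCL2 shares the exons of HNRNPUL2, so its values are uncertain.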

How the data were processed

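RNA-seq was performed on 4 libraries of SK-N-BE(2) cells, 2 with sh-Scb and 2 with sh-SAPCD2, grouped by the shRNA in the labels. The authors aligned reads to hg38 with HISAT2 2.2.0 (submitters' processing notes), assembled transcripts and estimated abundances with StringTie, and deposited whole-number counts per Ensembl gene, without scaling for library size. The Ensembl release, strandedness and treatment of multi-mapping reads are not given in the sources used here.

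Counts were scaled by TMM and tested with edgeR 4.0.16 (R 4.3.3, quasi-likelihood test) after filterByExpr (minimum count 10, minimum total 15). This left 18779 genes, with a biological coefficient of variation of 15.4%. P-values were adjusted by Benjamini-Hochberg over all of them. Genes at an adjusted p under 0.05 were called, and DEGs also exceeded an absolute log2 fold change of 1. SE is the absolute log2 fold change divided by the square root of F. CPM per kb used the canonical GENCODE 44 transcript, and 17467 tested genes had an annotation. The floor of 3 counts covers counting error only.

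The genes and lists were chosen with earlier results of these data known. Named were SAPCD2, DEGs, per family the 4 smallest p, the 2 highest per kilobase and the smallest absolute change, genes limited by overlap or pseudogenes, 4 genes per list and 9 pairs. Other genes called, close to the threshold or apart between the knockdown libraries were named after their values were seen. Alternatives were DESeq2 1.42.0, its size factors, library totals, other filters, protein-coding genes only, a loess correction for GC content and length (span 0.3), the replicate block and each library left out. Same-numbered libraries had a correlation of deviations of −0.019, so the numbers were not taken to pair them. The tests were tried on simulated data. Sequences came from RefSeq, GRCh38 and the study's shRNA list, and figures from matplotlib 3.10.9.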

Additional observations from a re-analysis of the deposited data

How the results depend on the processing

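None of the 27 calls changed direction under the 13 alternatives. DESeq2 called 26 genes lower and 3 higher, with all 24 of the lower genes among them. Of all tested genes, it called 12.4% lower and 13.8% higher. The cause of the shifts below was not tested. Once libraries were corrected for GC content and length, median log2 fold changes were −0.23 for hnRNPs, −0.29 for SR proteins, −0.55 for SF3 subunits and −0.0227 for U2AF subunits. That correction gave 5 splicing factors called higher, 2 of them snRNP proteins, and in the lists 4 spliceosome subunits, 2 LSm and 3 assembly genes called higher and 3 kinase, 14 SR-like and 11 tissue genes called lower. It turned SF3B1 to 0.0405, SF3B5 to −0.0082, HNRNPA1L2 to 0.0135, HNRNPL to −0.0353 and SNRPD3 to 0.027. Of all tested genes, that fit called 19.5% lower and 20.4% higher.

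With library totals, 1 hnRNP and 12.2% of all tested genes were higher, SF3B3 was −0.0101 and SRSF11 −0.0076. With a mean of at least 1 CPM, SF3B3 was −0.0009. With protein-coding genes only, the SR protein median was −0.44, SF3B3 was −0.0207, SRSF11 −0.0184 and HNRNPL −0.0006. Without a filter, 34935 genes were tested and SAPCD2 (−0.91) no longer passed. Splicing factors called lower numbered 18, against 24 with the filter, and 8 of the 27 calls were lost. That fit called 3.38% of all tested genes lower and 3.09% higher. Then 1 splicing factor was higher, an hnRNP (1), with 0 SR proteins higher and 2 snRNP proteins lower, and the lists had 4 spliceosome, 0 LSm, 1 assembly, 0 kinase, 5 SR-like and 1 exon junction genes lower and 0 spliceosome, 0 assembly and 0 kinase genes higher.

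The replicate block gave 23 splicing factors lower and 2 higher, against 14.4% and 15.2% of all tested genes. With it 1 hnRNP and 2 LSm genes were higher, and the call of 3 of the 27 changed. Adding the GC and length correction to the block made 19.1% of all tested genes lower and 20.3% higher. The replicate block with GC and length correction gave 5 splicing factors, 2 snRNP proteins, 4 spliceosome, 2 LSm, 3 assembly and 1 exon junction genes higher, 3 kinase, 14 SR-like and 11 tissue genes lower, medians of −0.24 for hnRNPs, −0.29 for SR proteins and −0.55 for SF3 subunits, and SF3B1 at 0.0402, SF3B5 at −0.0213, HNRNPL at −0.035 and SNRPD3 at 0.0266.

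With each library left out in turn, a lone library being assumed to vary like the other group, splicing factors called lower ranged from 8 to 38 and higher from 0 to 11, with a median from −0.40 to −0.26, while 5.80% to 20.2% of all tested genes were called lower and 5.92% to 22.1% higher. Medians ranged from −0.37 to −0.28 for hnRNPs, −0.43 to −0.35 for SR proteins and −0.49 to −0.14 for snRNP proteins. Lower and higher calls ranged from 3 to 17 and 0 to 4 for hnRNPs, 0 to 7 and 0 to 2 for SR proteins, 3 to 6 and 0 to 1 for SF3 subunits, and 1 to 8 and 0 to 3 for snRNP proteins, and U2AF subunits higher from 0 to 1. In the lists they ranged from 1 to 22 and 0 to 7 for spliceosome subunits, 0 to 4 and 1 to 7 for LSm, 0 to 5 and 0 to 3 for assembly, 0 to 4 and 0 to 3 for kinases, 0 to 10 and 0 to 3 for the exon junction complex, 3 to 13 and 3 to 11 for tissue regulators, and 1 to 16 lower for SR-like genes. Uncalled genes turned in sign within these ranges: HNRNPA1L2 −0.51 to 0.27, HNRNPA1L3 −0.28 to 0.54, HNRNPL −0.0742 to 0.12, HNRNPUL2 −0.11 to 0.0356, SF3A2 −0.34 to 0.15, SF3B1 −0.21 to 0.12, SF3B3 −0.0486 to 0.0596, SF3B5 −0.22 to 0.48, SNRPB −0.40 to 0.29, SNRPB2 −0.0601 to 0.26, SNRPD2 −0.24 to 0.50, SRSF11 −0.11 to 0.12, SRSF4 −0.13 to 0.0552 and SRSF9 −0.019 to 0.56.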
